A study of Mus musculus with 46 samples.

Results

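Laminin chains, integrin subunits and the basement membrane proteins that join them were followed in embryonic mouse gonads of both sexes, with and without mutations in Enh13, a remote enhancer of the testis-determining gene Sox9. The genes were chosen by symbol alone: laminin chains (Lama, Lamb or Lamc with a number), integrin subunits (Itga or Itgb with a number), and Hspg2, Agrn, Nid1, Nid2 and Dag1. Of 33331 gene rows 35 matched, and all 35 reached 10 or more counts in 3 or more libraries. They are 5 laminin alpha, 3 beta and 3 gamma chains, 4 linkers, dystroglycan, 11 integrin alpha and 8 integrin beta subunits. The data are poly(A) RNA-seq of whole gonad pairs of E12.5 embryos, 46 libraries in 12 groups. The XX groups were wild type (XX WT, n = 3), Enh13-1bp-ins-het (n = 3), Enh13-3bp-del-het (n = 3), Enh13-1bp-ins-hom (n = 5), Enh13-3bp-del-hom (n = 5) and Enh13-3bp-12bp-del-hom (n = 5). The XY groups had the same genotypes and sizes, except that XY Enh13-3bp-12bp-del-hom had n = 3. The names state a 1 bp insertion or a 3 bp deletion and zygosity. They do not explain 3bp-12bp-del, which is taken as homozygous, as labelled, and nothing says how many mutant lines were used or that replicates are separate animals. The p-values below therefore measure only the spread between these samples, which may be technical.

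The basement membrane is a sheet of extracellular matrix on which epithelia rest and which wraps vessels. Laminins are trimers of an alpha, a beta and a gamma chain that polymerize into the first layer of the sheet. Nidogens (Nid1, Nid2) and perlecan (Hspg2) tie the laminin layer to the collagen IV network, and agrin (Agrn) ties it to dystroglycan (Dag1). Integrins are cell-surface receptors made of an alpha and a beta subunit, and the pairing sets which matrix protein they bind. In the fetal testis, Sertoli cells and peritubular cells build a basement membrane around the testis cords at about the stage sampled here.

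The libraries were deep, with between 29909111 and 46150400 estimated counts in each. Sox9 stood at 7.84, 8.39 and 12.1 CPM (library-scaled counts) in XX WT, at 10.9 to 14.4 CPM in the XX heterozygotes, at 136 to 266 CPM in the XX homozygotes, at 84, 159 and 163 CPM in XY WT and at 160 to 323 CPM in the XY mutants. The summed CPM of 6 Sertoli markers was 14.6 to 18 in XX WT, 220 to 1420 in the XX homozygotes and 436 to 1040 in XY WT, and that of 6 pregranulosa markers was 605 to 833, 102 to 374 and 88.3 to 177. Some libraries stood apart. XY WT replicate 3 had a summed level of 5 mesonephros markers of 189 CPM against 11.8 and 19.5 in the other XY WT libraries, with Cdh16 at 80.4 against 0.437 and 1.42 CPM. XY Enh13-3bp-del-hom replicate 1 had 4960 CPM of 5 stroma markers against 1400 to 1830 in its group, with Krt19 at 107 CPM against 8.56 to 12.7. XX Enh13-3bp-del-hom replicate 4 had 103 CPM of mesonephros markers against 19.9 to 26.4, XX Enh13-1bp-ins-hom replicate 5 had 1420 CPM of Sertoli markers against 220 to 534, and XX WT replicate 1 had 122 CPM of adrenal markers against 4.45 and 4.81. Counts of called genes are given with and without these libraries. In whole gonads, fewer cells of a type and less RNA per cell cannot be told apart.

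In XX WT gonads the genes of a laminin receptor stood at the top. On the length-scaled TPM level, Itga6, an alpha subunit that binds laminin, had 219 ± 26 (SD, n = 3), and Itgb1, the beta subunit shared by most matrix integrins, had 201 ± 9.1. Dag1 followed with 142 ± 5.1 TPM, then Itgb5, a partner of Itgav, with 130 ± 6.4, and Nid2, Hspg2, Lamc1 and Lamb1 with 110 to 128. Itga6 and Itgb1 lay within 1 SD of each other, as did Itgb5, Nid2 and Hspg2, so the order among them is not set. Among the laminin alpha chains Lama1, the early embryonic chain, led with 39.8 ± 6 TPM, ahead of Lama4, a chain of vessel walls, with 32.3 ± 3.9 and Lama5, the chain of most later epithelia, with 20.7 ± 2.2. Lama2, the chain of muscle and nerve, had 4.5 ± 0.58 TPM and Lama3, a chain of skin-type epithelia, had 1.17 ± 0.2. The lowest levels were those of Itgb6, an epithelial partner of Itgav, with 0.363 TPM and Itga10, a collagen receptor subunit of cartilage, with 0.273 TPM. In XY WT gonads Itgb1 led with 205 ± 39 TPM and Itgb5 had 195 ± 38, while Itga6 stood in place 9 with 89.8 ± 14. The SDs of XY WT were wider, and for Agrn, 85.8 ± 62 TPM, most of the spread came from replicate 3.

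**Figure D1:**
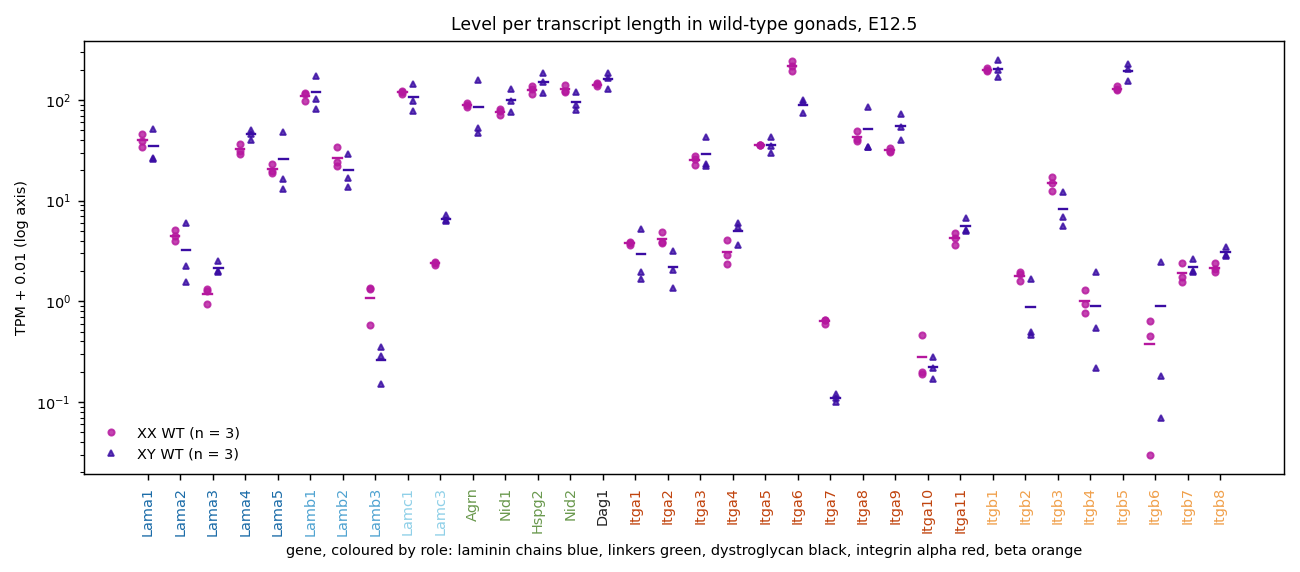
TPM + 0.01 (length-scaled level, log axis) of 34 of the 35 genes, ordered and coloured by role, in the XX WT libraries (circles, n = 3) and the XY WT libraries (triangles, n = 3), with a line at each mean. Itga6 and Itga7 lie higher in every XX WT than in any XY WT library, Lamc3 lies higher in every XY WT library, and the XY WT points of Agrn and Lama5 are spread by 1 high library.

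In unmutated gonads 5 of these genes differed between the sexes with all 6 libraries in the fit, and 25 without XY WT replicate 3. Itga6, at chr2:71745616-71858416 (mm10), had 366, 427 and 488 CPM in XX WT and 194, 148 and 177 CPM in XY WT. The sexes did not overlap, and Itga6 fell by 1.31 ± 0.14 (log2, XY minus XX ± SE) in XY WT (edgeR adjusted p = 0.00253). Lamc3, a gamma chain at chr2:31887291-31946539, had 8.34, 8.05 and 8.58 CPM in XX WT and 28.3, 25.9 and 20.8 CPM in XY WT. It rose by 1.58 ± 0.14 in XY WT (edgeR adjusted p = 0.00107), with all XY WT libraries above all XX WT libraries. These 2 calls held without any 1 of the 6 libraries. Itga7, a laminin receptor subunit known from muscle, was near the floor, with 0.828, 1.18 and 1.09 CPM in XX WT and 0.233, 0.121 and 0.22 CPM in XY WT, and fell by 2.41 ± 0.39 (edgeR adjusted p = 0.0102). Itga9, an alpha subunit that binds tenascin, had 129, 141 and 135 CPM in XX WT and 258, 200 and 284 CPM in XY WT, a rise of 0.87 ± 0.14 (edgeR adjusted p = 0.00936). Lama3 rose by 0.87 ± 0.2, from 4.52 ± 0.45 to 8.28 ± 1.6 CPM (edgeR adjusted p = 0.0373). The calls of Itga7 and Itga9 were lost without XX WT replicate 3 (adjusted p up to 0.0627 and 0.0541), that of Itga7 also without XX WT replicate 2, and that of Lama3 without any of 5 libraries (up to 0.14). In all, 5 of 35 genes were called, 14.3% against 11% of the 15730 genes tested, with 3 higher and 2 lower. An unadjusted p under 0.05 was found for 16 of the 35 and for 4179 of the 15730. Of the uncalled genes Lamb3 differed by -1.37 ± 0.52 (edgeR adjusted p = 0.15).

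XY WT replicate 3, the library with mesonephros markers, set how many genes passed. Without it 25 of the 35 genes were called, 9 higher and 16 lower in XY WT, beside 43.3% of all 16015 genes tested, and the median log2 fold change of the 35 moved from 0.10 to -0.65. Agrn had 147, 126 and 420 CPM in XY WT and 243, 259 and 256 CPM in XX WT. Replicate 3 lay above the XX WT libraries and the other XY WT libraries lay below them. With replicate 3 the change of Agrn was -0.14 ± 0.44 (edgeR adjusted p = 0.862), and without it Agrn fell by 0.89 ± 0.08 (8.99e-05). Lama5, with 36.9, 35.4 and 152 CPM, Hspg2, with 496, 330 and 885 CPM, and Lama1, with 104, 81.2 and 202 CPM, were also highest in that library. In the fit without it Nid2 fell by 0.80 ± 0.07 (edgeR adjusted p = 0.000103), Itgb5 rose by 0.80 ± 0.07 (0.000123) and Lamc3 rose by 1.70 ± 0.10 (1.12e-05). Without XX WT replicate 2 or 3 the count fell to 3 and 2, and without XX WT replicate 1 it was 5. For these fits the share of all genes called is not given, so the counts are not a result about the 35 alone.

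In XX gonads homozygous for an Enh13 mutation, most called laminin chains, linkers and laminin or collagen receptors were lower than in XX WT, and Itga4 was higher in 2 of the 3 groups with all libraries. In XX Enh13-1bp-ins-hom 14 of 35 genes were called (40% against 32.3% of the 16040 genes tested), 13 lower and 1 higher, and 15.1% of all genes were lower. In XX Enh13-3bp-del-hom 19 were called (54.3% against 44.8%), all 19 lower with all libraries in the fit, while 23.1% of all genes were lower. In XX Enh13-3bp-12bp-del-hom 11 were called (31.4% against 25.6%), 6 lower and 5 higher, while 11% of all genes were lower and 14.6% higher. The share called was thus within 10 percentage points of the background in each group, and in the first 2 groups the direction was mostly down. The median log2 fold change of the 35 genes was -0.48, -0.41 and -0.12, against 0, -0.03 and 0 over all genes tested. The 3 comparisons share the XX WT libraries. Gene length moves with these values and is taken up further on.

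**Figure D2:**
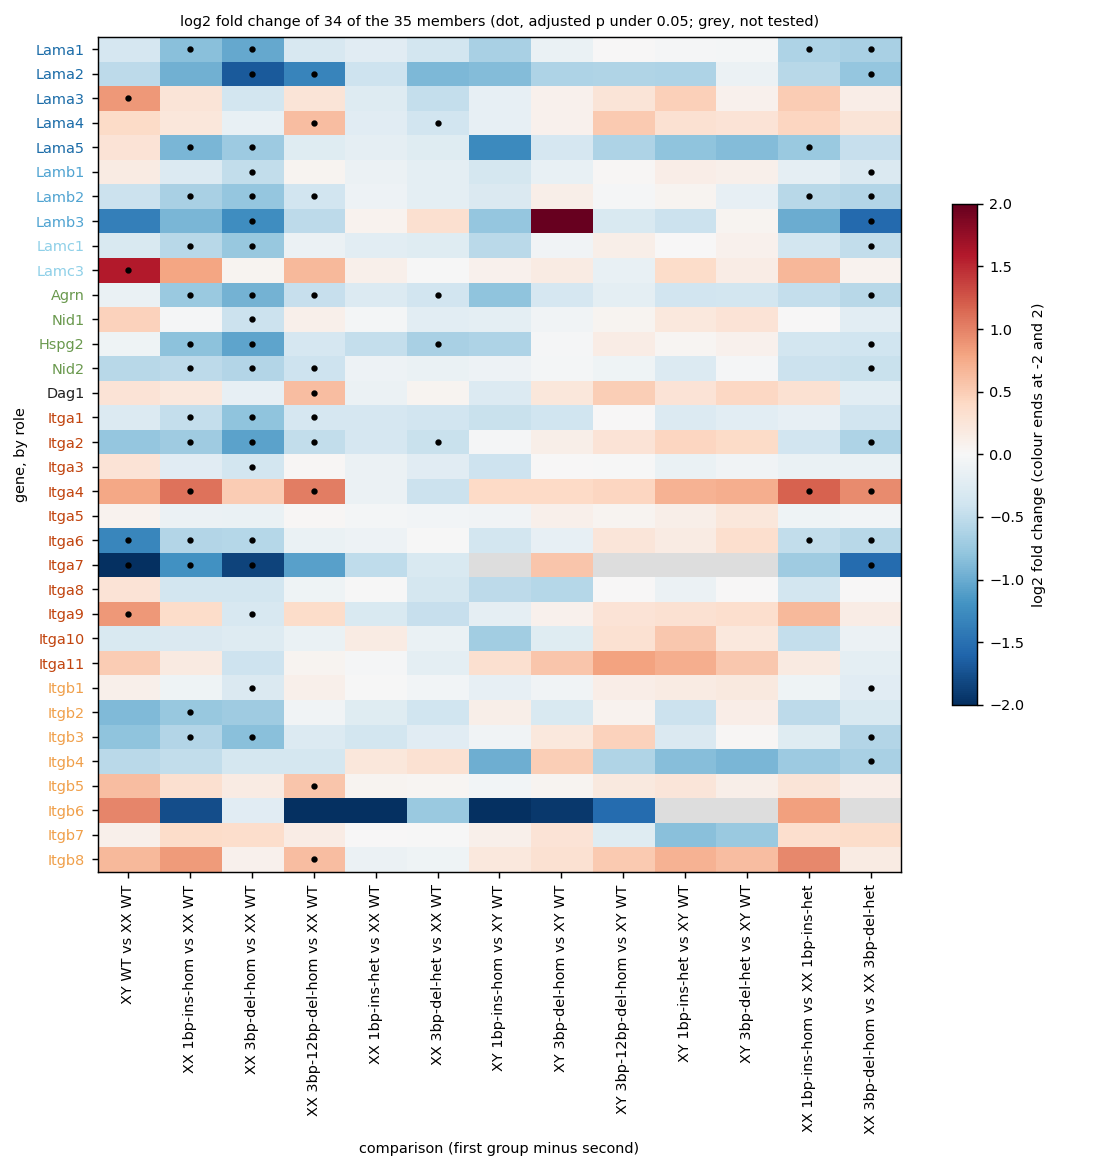
Log2 fold change (colour, first group minus second, ending at -2 and 2) of 34 of the 35 genes, in rows by role, in the 13 comparisons, in columns. A dot marks an edgeR adjusted p under 0.05 and grey a gene not tested. The dots gather in the XX homozygous columns, mostly on blue cells (13 of 14 and 19 of 19 in the first 2), with Itga4 in red, and the 5 columns against XY WT hold none.

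Among the laminins, Lama1, Lama5, Lamb2 and Lamc1 fell in both XX Enh13-1bp-ins-hom and XX Enh13-3bp-del-hom. Lama1 had 125, 172 and 189 CPM in XX WT, 90.1, 79.1, 93, 75.3 and 112 CPM in XX Enh13-1bp-ins-hom and 77.1, 81.2, 86.2, 82.1 and 74.7 CPM in XX Enh13-3bp-del-hom. Every library of these homozygotes lay below every XX WT library, and Lama1 fell by 0.83 ± 0.16 (edgeR adjusted p = 0.00547) and 1.02 ± 0.11 (0.000145). Lama5 averaged 61.4 ± 8.5 CPM in XX WT and 32.2 ± 4.9 CPM in XX Enh13-1bp-ins-hom, a fall of 0.91 ± 0.13 (edgeR adjusted p = 0.00193). In XX Enh13-3bp-del-hom Lama5 had 24.7, 38.7, 36.8, 54.5 and 31.2 CPM, with replicate 4, the library with mesonephros markers, inside the XX WT range, and fell by 0.72 ± 0.23 (0.0355). That call was lost without any of 5 of the 8 libraries (adjusted p up to 0.117). The TPM of Lama5 was 20.1 ± 5.2 in that group against 20.7 ± 2.2 in XX WT, so the fall was not seen in TPM. In XX Enh13-1bp-ins-hom it was 15.1 ± 2.1 TPM. Lama2 had 18.4, 16.5 and 14.2 CPM in XX WT, 3.51, 4.72, 4.5, 7.16 and 5.72 CPM in XX Enh13-3bp-del-hom and 8.6, 4.38, 6.87, 4.73 and 7.75 CPM in XX Enh13-3bp-12bp-del-hom. It had the largest fall of a laminin chain in both, 1.68 ± 0.2 (edgeR adjusted p = 0.000151) and 1.32 ± 0.22 (0.00302), with no overlap with XX WT. In XX Enh13-1bp-ins-hom Lama2 ranged from 3.3 to 14.5 CPM and differed by -0.96 ± 0.44 (adjusted p = 0.134). Lama4 moved the other way in XX Enh13-3bp-12bp-del-hom, with 139, 132, 105, 140 and 146 CPM against 85.5, 89.8 and 89.3 CPM, a rise of 0.61 ± 0.1 (edgeR adjusted p = 0.0023). Lamb3, near the floor, fell by 1.24 ± 0.3 in XX Enh13-3bp-del-hom, from 1.27 ± 0.47 to 0.533 ± 0.091 CPM (0.00646). Lama3 and Lamc3 were called in none of the 3 groups with all libraries in this fit.

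Of the linkers, Agrn and Nid2 fell in all 3 groups and Hspg2 in 2 of them. Agrn, at chr4:156165290-156197488 on the minus strand, had 243, 259 and 256 CPM in XX WT. It had 157, 130, 124, 143 and 186 CPM in XX Enh13-1bp-ins-hom, 110, 139, 129, 158 and 119 CPM in XX Enh13-3bp-del-hom, and 209, 173, 167, 172 and 186 CPM in XX Enh13-3bp-12bp-del-hom. All 15 homozygous libraries lay below the 3 XX WT libraries. The edgeR adjusted p was 0.00234, 9.89e-05 and 0.00249 in these groups, and stayed under 0.05 without any 1 library. Nid2 had 296, 335 and 307 CPM in XX WT and at most 247, 251 and 270 CPM in the 3 groups, and fell by 0.52 ± 0.09 (edgeR adjusted p = 0.00341), 0.58 ± 0.09 (0.000444) and 0.41 ± 0.08 (0.00646). Hspg2 had 486, 641 and 678 CPM in XX WT, 350, 300, 302, 257 and 469 CPM in XX Enh13-1bp-ins-hom and 268, 305, 306, 304 and 261 CPM in XX Enh13-3bp-del-hom, with no overlap. It fell by 0.82 ± 0.19 (edgeR adjusted p = 0.0131) and 1.06 ± 0.1 (7.35e-05), the first of which was lost without XX WT replicate 2 or 3 (up to 0.0562). The TPM of Hspg2 was 126 ± 12 in XX WT, 107 ± 22 in XX Enh13-1bp-ins-hom and 125 ± 12 in XX Enh13-3bp-del-hom. In the last group its fall was thus seen in the counts and not in TPM, and what sets the measures apart was not tested. Nid1 fell in XX Enh13-3bp-del-hom only, by 0.43 ± 0.08 (edgeR adjusted p = 0.00111), and whether this differed between genotypes was not tested. Dag1, the receptor at the cell surface that agrin binds, had 404, 436 and 455 CPM in XX WT and 625, 660, 596, 686 and 671 CPM in XX Enh13-3bp-12bp-del-hom, where it rose by 0.61 ± 0.06 (0.000302). It was called in neither of the other groups, at 0.21 ± 0.15 (0.33) and -0.16 ± 0.08 (0.135).

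Among the integrins, the collagen receptor subunits Itga1 and Itga2 and the laminin receptor subunits Itga6 and Itga7 were lower in 2 or 3 of the groups, and Itga4, a subunit that binds fibronectin and Vcam1, was higher in 2. Itga2 had 16.5, 17 and 16.6 CPM in XX WT, 11.1, 10, 8.54, 8.72 and 11.9 CPM in XX Enh13-1bp-ins-hom, 7.44, 8.24, 8.09, 7.03 and 9.22 CPM in XX Enh13-3bp-del-hom and 14.8, 10.9, 10.5, 10.3 and 12 CPM in XX Enh13-3bp-12bp-del-hom. All 15 libraries lay below XX WT, and Itga2 fell by 0.71 ± 0.12 (edgeR adjusted p = 0.00286), 1.07 ± 0.09 (3.54e-05) and 0.49 ± 0.12 (0.0145). Itga6 averaged 427 ± 61 CPM in XX WT, 281 ± 49 in XX Enh13-1bp-ins-hom and 288 ± 39 in XX Enh13-3bp-del-hom, falls of 0.58 ± 0.15 (edgeR adjusted p = 0.0169) and 0.57 ± 0.12 (0.00489). In XX Enh13-3bp-12bp-del-hom Itga6 had 385 ± 65 CPM and was not called (-0.13 ± 0.14, 0.552). Itga7 fell by 1.21 ± 0.32 (edgeR adjusted p = 0.0189) and 1.85 ± 0.41 (0.00394) in the first 2 groups, at mean levels of 0.439 and 0.288 against 1.03 CPM, and differed by -1.08 ± 0.39 (0.0631) in the third. Itgb2, the beta subunit of leukocytes, fell by 0.76 ± 0.23 in XX Enh13-1bp-ins-hom (edgeR adjusted p = 0.0327) and was uncalled in XX Enh13-3bp-del-hom (-0.71 ± 0.28, 0.0642). The summed CPM of 6 macrophage markers was 40.4 to 61.7 in XX WT, 19.7 to 45.8 in XX Enh13-1bp-ins-hom and 22.7 to 35.1 in XX Enh13-3bp-del-hom. In XX Enh13-3bp-12bp-del-hom this sum was 26 to 40. Itgb2 was not called there, with 2.59 ± 1.7 CPM against 2.75 ± 0.15 in XX WT. The part of these markers in the change of Itgb2 was not tested. Itgb6 was at 0 to 3.99 CPM over all libraries and was not called, with -1.77 ± 1.1 (0.251) and -2.46 ± 1.35 (0.219) in XX Enh13-1bp-ins-hom and XX Enh13-3bp-12bp-del-hom.

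Itga4, at chr2:79255426-79333123 on the plus strand, had 23.8, 16.4 and 13.9 CPM in XX WT. In XX Enh13-1bp-ins-hom it had 29.2, 31.5, 31.5, 31.9 and 64.3 CPM, in XX Enh13-3bp-12bp-del-hom 35, 35.2, 40.2, 36.4 and 34.5 CPM, and in XX Enh13-3bp-del-hom 25.1, 30.4, 25, 19.4 and 28.5 CPM. The first 2 groups lay wholly above XX WT, and the third overlapped it through replicate 4. Itga4 rose by 1.08 ± 0.31 (edgeR adjusted p = 0.0324) and 1.02 ± 0.15 (0.00219), and its difference in XX Enh13-3bp-del-hom was 0.5 ± 0.19 (0.0616). In that group it was called higher without replicate 4 (0.63, edgeR adjusted p = 0.0194) and without XX WT replicate 1 (0.75, 0.00616). In XY WT Itga4 had 36.7, 25.5 and 31.1 CPM, within the range of the homozygous XX libraries. Itgb8, a beta subunit known to activate latent TGF-beta with Itgav, had 9.45, 11.4 and 10.9 CPM in XX WT and 17.3, 15.4, 10.6, 18.5 and 18.4 CPM in XX Enh13-3bp-12bp-del-hom, with replicate 3 inside the XX WT range. It rose by 0.62 ± 0.17 there (edgeR adjusted p = 0.0272), a call lost without any of 5 of the 8 libraries (up to 0.0925). Itgb5 had 201, 208 and 232 CPM in XX WT and 277, 290, 308, 355 and 313 CPM in XX Enh13-3bp-12bp-del-hom, with no overlap, and rose by 0.55 ± 0.08 (0.00165). In XY WT Itgb5 had 388, 354 and 237 CPM.

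**Figure D3:**
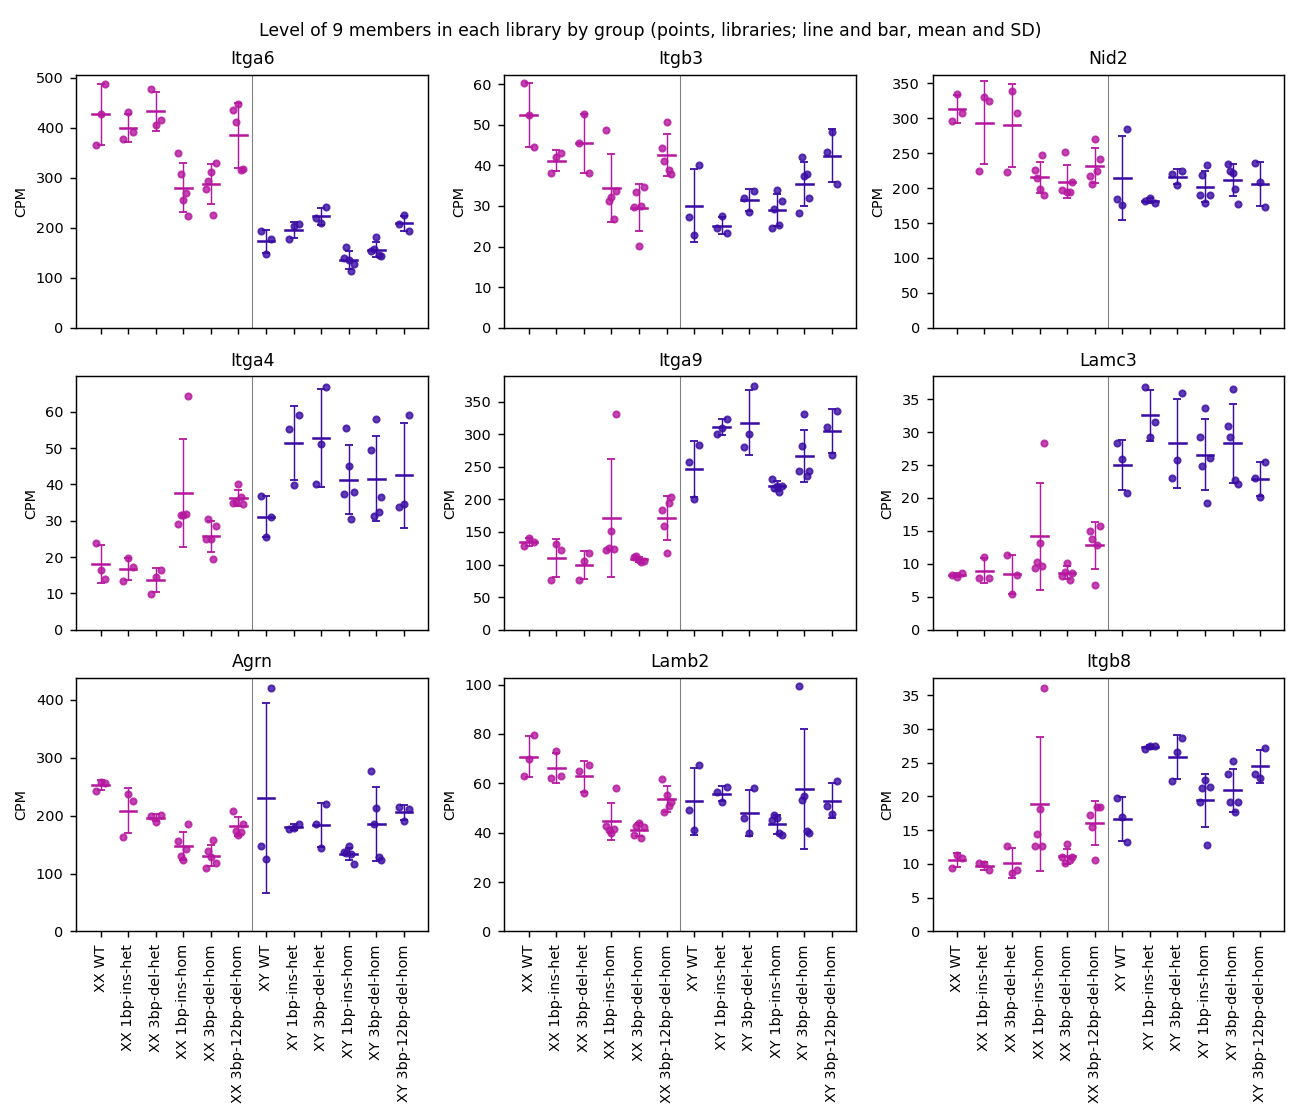
CPM (library-scaled counts, linear axis from 0) of 9 of the genes in each library of the 12 groups, XX on the left and XY on the right of each panel. Points are libraries, the line is the group mean and the bar the SD. Agrn lies lower in all 15 XX homozygous libraries than in the 3 XX WT libraries, and Itga6 lies lower in every XY library than in any XX WT library.

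Without XX Enh13-1bp-ins-hom replicate 5, the library with the highest Sertoli marker sum, 17 of the 35 genes were called in that group, 2 higher and 15 lower, beside 35.2% of all genes. Itgb8 was then called higher (0.48, edgeR adjusted p = 0.0298). Replicate 5 had the highest level of its group for Itga4, Itga9 and Lamc3, at 64.3, 331 and 28.4 CPM, against at most 31.9, 152 and 13.1 CPM in its fellows. The count for XX Enh13-1bp-ins-hom was 7 without XX WT replicate 2 and 8 without XX WT replicate 3, and the calls of Itga4, Itga6, Itga7 and Hspg2 were among those lost (adjusted p up to 0.115, 0.0734, 0.0843 and 0.0562). No share of all genes stands beside these counts. Without XX Enh13-3bp-del-hom replicate 4, the library with mesonephros markers, 23 of 34 genes tested were called in that group, 2 higher and 21 lower, beside 51.6% of all genes. The higher genes were Itga4 and Itgb5 (0.28, edgeR adjusted p = 0.00155). Without XX WT replicate 1, the library with adrenal markers, 11, 20 and 10 genes were called in XX Enh13-1bp-ins-hom, XX Enh13-3bp-del-hom and XX Enh13-3bp-12bp-del-hom, beside 23.3%, 39.3% and 19.4% of all genes, and 1, 1 and 4 of them were higher.

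Agrn, Itga1, Itga2, Lamb2 and Nid2 were lower in all 3 homozygous XX groups, 10 genes were called in none of them, and the 3 comparisons share their XX WT libraries. How many of all genes tested did the same was not counted, so neither number is a result about the 35 alone. Without XX WT replicate 1 the calls of Itga1 were lost in XX Enh13-1bp-ins-hom (-0.40, edgeR adjusted p = 0.115) and XX Enh13-3bp-12bp-del-hom (-0.26, 0.0949). Both were also lost without XX WT replicate 2, and the first without replicate 2 or 3 of the homozygotes. In XX Enh13-3bp-12bp-del-hom the call of Itga2 was lost without XX WT replicate 2 and that of Lamb2 without XX WT replicate 3. Itga1 and Itga2, both collagen receptor subunits, are neighbours on chromosome 13 with 20995 bases between them and are read from the same strand. Promoters are shown for 3 of these genes and for Itga4, which rose, since the start of their RefSeq entry lay within 5 bases of the outermost annotated start. Each is the 250 bases before the start, 5′ to 3′ on the gene's strand, from RefSeq (GRCm38.p6), at chr4:156197489-156197738 for Agrn, chr13:115101965-115102214 for Itga1 and chr13:114932101-114932350 for Itga2 (minus strand), and at chr2:79255176-79255425 for Itga4 (plus strand). Capitals mark the GC box, GGGCGG or its reverse complement.
Agrn: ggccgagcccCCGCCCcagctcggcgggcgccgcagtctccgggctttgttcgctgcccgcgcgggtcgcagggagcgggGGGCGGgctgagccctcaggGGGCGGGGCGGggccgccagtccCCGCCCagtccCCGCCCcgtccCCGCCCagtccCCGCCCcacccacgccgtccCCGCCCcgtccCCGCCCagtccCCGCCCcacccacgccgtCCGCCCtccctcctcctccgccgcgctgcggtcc
Itga1: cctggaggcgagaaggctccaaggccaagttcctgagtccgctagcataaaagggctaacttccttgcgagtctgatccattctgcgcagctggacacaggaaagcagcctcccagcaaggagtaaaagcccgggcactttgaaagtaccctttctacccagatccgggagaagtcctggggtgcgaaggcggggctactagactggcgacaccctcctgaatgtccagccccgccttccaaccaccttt
Itga2: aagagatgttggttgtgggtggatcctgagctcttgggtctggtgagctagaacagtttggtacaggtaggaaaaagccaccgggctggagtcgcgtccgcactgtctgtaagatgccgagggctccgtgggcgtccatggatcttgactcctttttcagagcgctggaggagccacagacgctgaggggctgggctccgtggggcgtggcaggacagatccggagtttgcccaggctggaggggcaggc
Itga4: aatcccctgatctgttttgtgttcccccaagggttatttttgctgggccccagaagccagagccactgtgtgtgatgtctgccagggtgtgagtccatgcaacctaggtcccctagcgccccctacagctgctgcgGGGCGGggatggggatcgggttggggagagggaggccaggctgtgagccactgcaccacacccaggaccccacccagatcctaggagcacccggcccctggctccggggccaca
The Agrn window had 83.6% G or C, 12 GC boxes, 2 of which overlap each other, and 35 CG pairs. The Itga1 and Itga2 windows had 57.6% and 60.8% G or C and no GC box, and the Itga4 window had 64% and 1 GC box. Of the 35 genes 23 matched an entry in the promoter table. On either strand, the GC box was found in 11 of these 23 and in 32.7% of 32841 promoters of the same length. The SOX core AACAAT was found in 1 of 23 and in 9.43% of all promoters, the GATA motif AGATAA in 0 of 23 and in 9.99%, and the NR5A1 motif CAAGGTCA in 0 of 23 and in 1.33%. The 4 windows shown hold none of the last 3 motifs.

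These genes make long transcripts, and in the 5 XX mutant groups and 2 of the 5 XY mutant groups longer transcripts were lower than shorter ones against wild type of the same sex. The relative transcript length, taken as the ratio of a gene's deposited counts to its TPM, had a median of 2.06 over the 35 genes against 0.972 over the 17142 genes with 10 or more counts in 3 or more libraries, and 34 of the 35 lay above the latter. The longest annotated transcript had a median of 5784 bases against 2981 bases, with 14187 bases for Hspg2 and 11388 bases for Lama5. Itga1 and Itga4 had the greatest relative lengths, 4.36 and 4.09, and Itgb7, a beta subunit of lymphocytes, the smallest, 0.636. Spearman's rho of fold change with relative length across all genes, which are not independent replicates, was -0.388, -0.477 and -0.219 in XX Enh13-1bp-ins-hom, XX Enh13-3bp-del-hom and XX Enh13-3bp-12bp-del-hom, -0.408 and -0.448 in XX Enh13-1bp-ins-het and XX Enh13-3bp-del-het, and -0.112 between XY WT and XX WT. Against XY WT it was -0.513 in XY Enh13-1bp-ins-hom and -0.307 in XY Enh13-3bp-del-hom, and 0.0715, 0.0302 and -0.0439 in XY Enh13-3bp-12bp-del-hom, XY Enh13-1bp-ins-het and XY Enh13-3bp-del-het. In XX Enh13-1bp-ins-hom the genes of the shortest of 10 equal length bins had a median log2 fold change of 0.259 and those of the longest bin of -0.347. All genes at least as long as the median of the 35 had medians of -0.32, -0.42 and -0.13 in the 3 homozygous groups, beside -0.48, -0.41 and -0.12 for the 35. Among the 35 themselves rho with relative length was 0.287, -0.0227 and 0.213 in these groups, so by this measure the longer of them were not the lower ones. Spearman's rho between relative and annotated length was 0.707 among the 35 and 0.897 over all genes. The fold changes of the 35 were not set against annotated length.

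**Figure D4:**
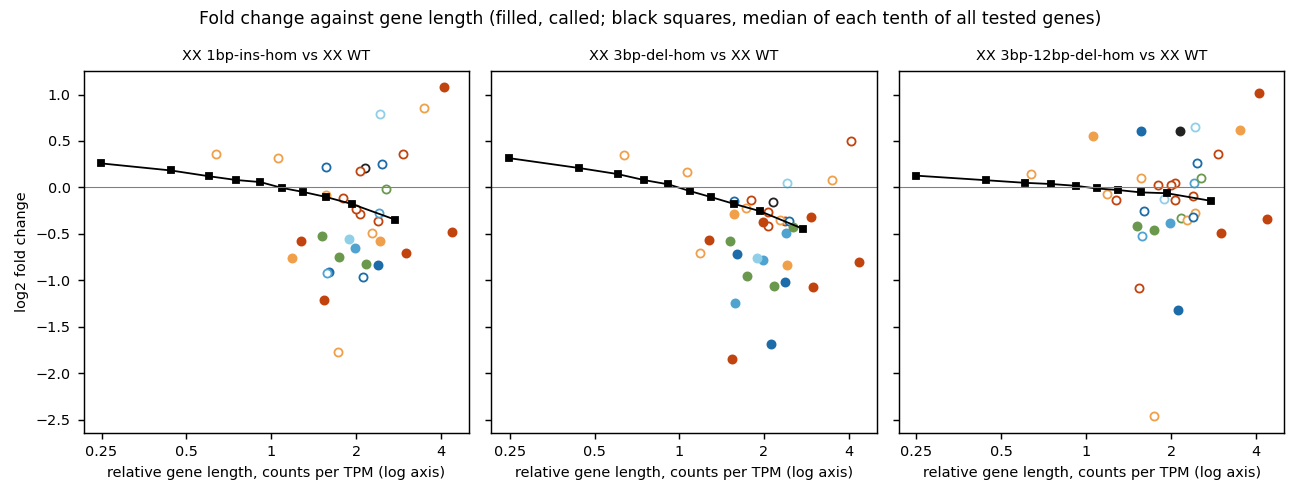
Log2 fold change against XX WT (vertical axis) by relative transcript length (counts/TPM, log axis) in the 3 XX homozygous groups. Circles are 34 of the 35 genes, filled where the edgeR adjusted p is under 0.05, and black squares joined by a line are the median of all tested genes in each of 10 length bins. The line slopes down in each panel, and most circles lie right of the middle of the line.

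With the trend of each library with relative length removed, 10, 14 and 12 of the 35 genes were called in XX Enh13-1bp-ins-hom, XX Enh13-3bp-del-hom and XX Enh13-3bp-12bp-del-hom, beside 21.4%, 35.1% and 25.2% of all genes. The split was 2 higher and 8 lower, 3 higher and 11 lower, and 7 higher and 5 lower, and the medians of the 35 moved to -0.09, -0.11 and -0.06. Agrn, Lamb2 and Nid2 were called lower in all 3 groups under this fit, and Itga4 and Itgb8 were called higher in all 3. The share of all genes that did so was not counted. Agrn changed by -0.61 (edgeR adjusted p = 0.00737), -0.74 (0.000168) and -0.41 (0.00168). Itga4 changed by 1.59 (edgeR adjusted p = 0.0129), 1.12 (0.00768) and 1.23 (0.00333), and Itgb8 by 1.29 (0.0386), 0.62 (0.00415) and 0.80 (0.0113). Both are among the longest of the 35, which this fit moved up most. In XX Enh13-3bp-del-hom Itgb8 had 11.2 ± 1.1 CPM against 10.6 ± 1 in XX WT. Its TPM was 1.88 ± 0.2 against 2.13 ± 0.22, so its rise there was not seen in TPM. Itga4 had 3.67 ± 0.61 TPM there against 3.09 ± 0.89 in XX WT. In XX Enh13-1bp-ins-hom and XX Enh13-3bp-12bp-del-hom Itgb8 had 3.19 ± 1.7 and 3.02 ± 0.68 TPM, and Itga4 had 5.5 ± 2.1 and 5.82 ± 0.27. Lamc3, called in none of the 3 groups before, was called higher in 2 of them. Itga1 was called in none of the groups, at 0.07 (0.758), -0.16 (0.303) and -0.11 (0.572), and Itga2 only in the last 2, at -0.60 (0.00275) and -0.36 (0.0224), against -0.34 (0.0689) in XX Enh13-1bp-ins-hom. In XX Enh13-3bp-del-hom Itga9, which had fallen by 0.32 ± 0.05, had a change of 0.13 (edgeR adjusted p = 0.152), while Lama1, Lama2, Lamc1, Hspg2 and Itga6 were still called lower (-0.66, -1.39, -0.51, -0.76 and -0.48). Between XY WT and XX WT 10 genes were called under this fit, 6 higher and 4 lower, beside 13.9% of all genes, with Nid1 (0.59, 0.00622), Lama4 (0.44, 0.034), Itga4 (1.04, 0.0448), Itga2 (-0.62, 0.0229) and Itgb3 (-0.71, 0.0258) added. The trend cannot be told apart here from a true difference that follows length, and what produced it was not tested.

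**Figure D5:**
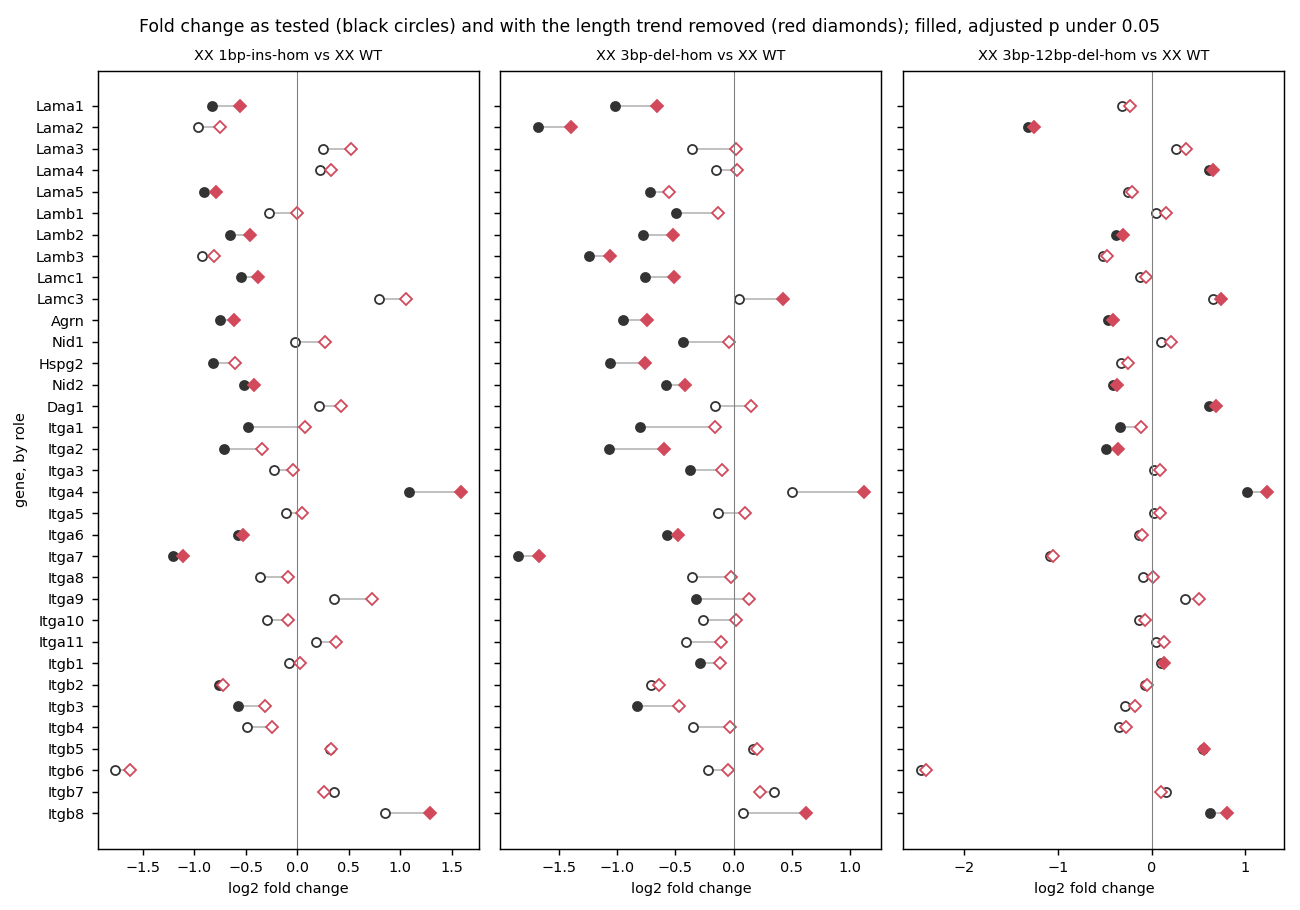
Log2 fold change against XX WT of 34 of the 35 genes, in rows by role, as tested (black circles) and with the length trend removed (red diamonds) in the 3 XX homozygous groups, filled where the edgeR adjusted p is under 0.05. Most diamonds lie to the right of their circle, and those of Itga4 and Itgb8 are filled and above 0 in all 3 panels.

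The summed level of vessel markers was also lower in XX Enh13-1bp-ins-hom and XX Enh13-3bp-del-hom. The summed CPM of 6 endothelial markers was 581 to 630 in XX WT, 406 to 525 in XX Enh13-1bp-ins-hom, 375 to 476 in XX Enh13-3bp-del-hom and 495 to 586 in XX Enh13-3bp-12bp-del-hom. In the 3 homozygous groups 4, 5 and 0 of the 6 markers were called lower, beside 15.1%, 23.1% and 11% of all genes. With the length trend removed 1, 4 and 0 were, beside 8.55%, 14.9% and 10.3% of all genes. The part of these markers in the lower CPM of Lama1, Lama5, Hspg2 and Agrn in the first 2 groups was not tested. Lama4, the chain of vessel walls, was called in neither, with 101 ± 20 and 79.7 ± 6.9 CPM against 88.2 ± 2.4 in XX WT. Its TPM was 43.5 ± 6.5 and 41.9 ± 5.7 against 32.3 ± 3.9.

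Against XX WT 4 of the 35 genes were called in XX Enh13-3bp-del-het and 0 in XX Enh13-1bp-ins-het. In XX Enh13-3bp-del-het Hspg2 had 412, 362 and 398 CPM against 486, 641 and 678 CPM in XX WT and fell by 0.65 ± 0.12 (edgeR adjusted p = 0.0172). Agrn had 199, 190 and 201 CPM there and fell by 0.39 ± 0.05 (0.00579), Itga2 had 11.5 to 13.5 CPM and fell by 0.45 (0.0207), and Lama4 fell by 0.38 (0.0264). None of the 4 overlapped XX WT, but they were picked as called, and the share of all genes without overlap was not counted. These 4 of 35 genes (11.4%) stood against 10.9% of all genes called and 6.15% lower, and with the length trend removed only Agrn remained (-0.29, edgeR adjusted p = 0.0245), beside 2.83% of all genes. The count was 2 without replicate 1 or 2 of the heterozygotes, 1 without XX WT replicate 2 and 7 without XX WT replicate 1. The share of all genes called is not given beside these counts, so they are not a result about the 35 alone. The largest uncalled differences were those of Lama2 (-0.90 ± 0.23, adjusted p = 0.0518) and Itgb6 (-0.74). In XX Enh13-1bp-ins-het edgeR called 0 of the 35 genes and 0% of all genes, and DESeq2 called 0 of the 35 and 1.58% of all genes. An unadjusted p under 0.05 in edgeR was found for 3 of the 35 and for 1251 of all 15694 genes tested. Itga7 (-0.51 ± 0.29, adjusted p = 0.698) and Itgb6 (-2.61 ± 1.32, 0.678) differed most.

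Set against heterozygotes of the same allele, which leaves XX WT out, the 1bp-ins and 3bp-del homozygotes had 3 and 6 of the 11 laminin chains called lower, and Itga4 called higher for both alleles. In XX Enh13-1bp-ins-hom against XX Enh13-1bp-ins-het 5 genes were called (14.3% against 17.3% of all genes), 4 of them lower (11.4% against 8.76%). Lama5 fell by 0.75 (edgeR adjusted p = 0.0207), Lama1 by 0.61 (0.0186), Lamb2 by 0.55 (0.0194) and Itga6 by 0.50 (0.0334), and Itga4 rose by 1.18 ± 0.29 (0.0321), from 13.5, 19.6 and 17.2 CPM. This count was 0 without replicate 2 or 3 of the heterozygotes, 2 and 1 without replicates 2 and 3 of the homozygotes, and 10 (2 higher and 8 lower) without homozygote replicate 5, beside 19.8% of all genes. The share of all genes is given for the last of these fits only. In XX Enh13-3bp-del-hom against XX Enh13-3bp-del-het 16 of 34 genes tested were called (47.1% against 27.1%), 15 of them lower (44.1% against 13.1%). Lama1 had 136, 116 and 134 CPM in these heterozygotes, above all 5 homozygous libraries, and fell by 0.65 ± 0.07 (edgeR adjusted p = 9.47e-05). Lamb3 fell by 1.55 ± 0.23 (0.000943), Itga7 by 1.54 ± 0.41 (0.0187) and Lama2 by 0.77 (0.0433), and Itga4, with 9.94, 14.5 and 16.4 CPM in the heterozygotes, rose by 0.95 ± 0.18 (0.00531). Without XX Enh13-3bp-del-hom replicate 4 there were 18 called genes, 3 higher and 15 lower, beside 34.3% of all genes, and Lama4 was called higher (0.30, edgeR adjusted p = 0.00714). With the length trend removed 5 (1 higher and 4 lower) and 12 (2 higher and 10 lower) genes were called, beside 14.1% and 24.4% of all genes, so that the first count stood at its background.

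In XY gonads no difference of the 35 genes from XY WT passed the threshold in the edgeR fits of 2 groups. That is a lack of calls and not evidence of no change. In XY Enh13-1bp-ins-hom 28 of 34 genes tested had a log2 fold change below 0, with a median of -0.28. All genes at least as long as the median of the 35 had a median of -0.23 there. edgeR called 0 of the 33 to 35 genes tested in each of the 5 XY mutant groups, beside 0% of all genes in XY Enh13-1bp-ins-hom, XY Enh13-3bp-del-hom, XY Enh13-1bp-ins-het and XY Enh13-3bp-del-het and 0.013% in XY Enh13-3bp-12bp-del-hom. In these groups, in this order, 12, 1, 6, 6 and 4 of the 35 had an unadjusted p under 0.05. Over all genes it was 2232 of 15693, 1722 of 15812, 943 of 15336, 740 of 15261 and 1052 of 15390. DESeq2 called 0, 0, 1, 0 and 1 of the 35, beside 0.769%, 1.15%, 0.261%, 0.112% and 1% of all genes. All 5 share XY WT, whose replicate 3 stands apart. In XY Enh13-3bp-del-hom 0 were called without XY WT replicate 3 or without its own replicate 1, beside 0% and 0.019% of all genes. Lamb3 was at 21 CPM in XY Enh13-3bp-del-hom replicate 1 and at 0.0711 to 0.433 CPM in the other libraries of that group, with a difference from XY WT of 3.17 ± 2.0 (edgeR adjusted p = 0.536). Itga6 had 113 to 241 CPM over all XY mutant libraries and Itga4 30.5 to 66.9 CPM.

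Whether the change of a gene differed between XX and XY was tested in an added fit over all 12 groups. For the 3bp-del-hom genotype 7 of the 35 genes differed, beside 11.5% of the 17033 genes tested, and all 7 had a lower change in XX. The length trend was not removed in this fit. In the fits of 2 groups, all genes at least as long as the median of the 35 had medians of -0.42 in XX and -0.14 in XY. How many of all genes had a lower change in XX was not counted, so the shared direction is not a result about the 35 alone. Itga2 differed by -1.16 ± 0.23 (XX change minus XY change, edgeR adjusted p = 0.00128) and Itgb3, the partner of Itgav and Itga2b, by -1.02 ± 0.24 (0.007). Hspg2 differed by -1.01 ± 0.3 (0.0276), Lamb2 by -0.87 ± 0.26 (0.0267), Lamc1 by -0.66 ± 0.22 (0.0463), Itga7 by -2.37 ± 0.8 (0.0484) and Lamb3 by -4.37 ± 1.35 (0.0327). Without XY Enh13-3bp-del-hom replicate 1 only Itga2 (-1.16, 0.00209) and Itgb3 (-1.09, 0.00559) were called, and Lamb3 was at -0.28 (0.854), beside 7.91% of all genes called. Without XY WT replicate 3 there were 16, beside 25.1% of all genes. Without XX Enh13-3bp-del-hom replicate 4 there were 5, beside 12.4%, and without XX WT replicate 1 there were 7, beside 9.48%. For 1bp-ins-hom, 3bp-12bp-del-hom and the 2 heterozygous genotypes 0 of the 35 were called, beside 3.01%, 2.57%, 0% and 0% of all genes.

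Other genes of the basement membrane did not all follow the laminins. Of 20 such genes 2 rose and 7 fell in XX Enh13-1bp-ins-hom, 4 rose and 11 fell in XX Enh13-3bp-del-hom, and 3 rose and 5 fell in XX Enh13-3bp-12bp-del-hom. Over all genes tested 17.2% rose and 15.1% fell, 21.6% rose and 23.1% fell, and 14.6% rose and 11% fell in these groups. Smoc2, a calcium-binding matrix protein, rose by 3.34 ± 0.92 (edgeR adjusted p = 0.028), 2.26 ± 0.25 (0.000169) and 3.04 ± 0.54 (0.00823), and by 4.45 ± 0.17 (0.000137) in XY WT against XX WT. Hmcn1, the long matrix protein hemicentin, fell by 1.37 ± 0.29 (edgeR adjusted p = 0.00962) in XX Enh13-1bp-ins-hom, by 2.11 ± 0.09 (9.17e-07) in XX Enh13-3bp-del-hom and by 1.57 ± 0.1 (0.000678) in XX Enh13-3bp-del-het. Col18a1, the collagen that holds endostatin, rose by 1.1 ± 0.23 (0.0129) in XX Enh13-3bp-12bp-del-hom, and Col4a4, a collagen IV chain, rose by 2.63 ± 0.29 (0.00253) in XY WT against XX WT, where 8 of the 20 rose and 2 fell. Over all genes 5.1% rose and 5.94% fell in XY WT against XX WT. With the length trend removed the 20 split into 3 higher and 5 lower, 4 and 7, and 5 and 4 in the 3 homozygous groups. Over all genes 12.9% were then higher and 8.55% lower, 20.1% and 14.9%, and 14.9% and 10.3%.

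Among 8 other matrix receptors Sdc4, a heparan sulphate syndecan, rose by 0.90 ± 0.13 (edgeR adjusted p = 0.00193), 0.74 ± 0.09 (0.000154) and 0.72 ± 0.08 (0.000432) in the 3 homozygous groups, where 1, 1 and 2 of the 8 rose and 2, 3 and 4 fell. Ddr2, a collagen receptor kinase, fell by 1.08 ± 0.14 (0.000898) in XX Enh13-3bp-12bp-del-hom. Of 4 other integrin subunits tested 2 fell in XX Enh13-1bp-ins-hom and 4 in XX Enh13-3bp-del-hom, with Itgam, of macrophages, and Itga2b, of platelets, among them, and 1, Itgav, rose in XX Enh13-3bp-12bp-del-hom. With the length trend removed 1 and 1 of these fell in the first 2 groups, and of the 8 matrix receptors 1, 0 and 3 fell in the 3 groups and 1 rose in each. Of 15 genes that link integrins to the cytoskeleton 1 rose and 4 fell, 1 rose and 5 fell, and 2 rose and 1 fell. With the length trend removed 2 rose and 1 fell, 4 rose and 0 fell, and 3 rose and 1 fell. The shares of all genes are those given above for both fits, and the counts of these short lists are not a result about the lists alone. Tln2, a talin with a long transcript, fell by 0.36 in XX Enh13-3bp-del-hom (edgeR adjusted p = 0.00735) and was higher by 0.16 (0.0302) with the length trend removed. Parvb, a parvin that binds integrin-linked kinase, fell by 1.27 ± 0.14 (0.00256) in XY WT against XX WT. In the 5 XY mutant groups 0 of the genes in these 4 lists were called.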

How the data were processed

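Poly(A)-selected RNA of whole mouse gonad pairs was sequenced in 46 libraries. Per the labels' protocols, a Qiagen RNeasy micro kit gave the RNA, and NEB reagents served for poly(A) selection and library preparation. The submitters' processing notes name mm10. Aligner, quantifier, annotation and strand setting were not given in the sources used here, so reads of overlapping genes on opposite strands may be mixed. The authors deposited estimated counts per gene symbol, not normalized as far as the values show, which were rounded, and TPM, in which the authors accounted for transcript length. A column that matched no sample (1 in each file) was not used. No libraries of a group were near-identical (71 pairs, chi-square per degree of freedom at least 13.3).

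All genes were fitted with edgeR 4.0.16 in R 4.3.3 (quasi-likelihood F test, robust, TMM, filterByExpr), each comparison on its own 2 groups, with Benjamini-Hochberg adjustment over all genes tested and calls at an adjusted p under 0.05. The SE of a fold change was derived from its size and F. CPM values use TMM factors computed over all libraries and are given ± SD. The length trend was removed with a lowess offset (span 0.3) per library. Alternatives were RLE scaling, no filter, DESeq2 1.42.0, all groups in 1 fit, the replicate number as a block, the length trend removed and leaving out each library. Annotated transcript lengths (GENCODE M21), the XX against XY interaction and the report of 1 left-out homozygote were added after seeing the data. Gene positions are from GENCODE M21 and promoters from RefSeq (GRCm38.p6).

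The genes, the 4 lists of related genes and the marker lists were chosen with earlier results of these data known. Full statistics were given to up to 6 called and 2 uncalled genes per comparison, those with the largest fold change, and to genes shared by the XX homozygous groups, and in related lists up to 2 called genes were named. The values of 1 of the 35 genes are not reported here, and it is left out of the figures and of the search for outlying libraries, but not of the counts over all 35 genes.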

Additional observations from a re-analysis of the deposited data

Results flagged for a closer look

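Single libraries lay far from the other 4 of their group, by the gap to the nearest library over the group's range, in 19 of 170 tests of a gene in a group, where chance gives about 1 in 20. XX Enh13-1bp-ins-hom replicate 5 had the highest level of its group for 7 genes: Itga11 at 27 CPM, Itga4 at 64.3 CPM, Itga9 at 331 CPM, Itgb8 at 36.1 CPM, Lamb2 at 58.1 CPM, Lamc3 at 28.4 CPM and Nid1 at 397 CPM. Its Sertoli marker sum was 1420 CPM against 220 to 534 CPM in its fellows, and its part in these values was not tested. XY Enh13-3bp-del-hom replicate 1 was highest for Itgb4 at 7.73 CPM, Itgb6 at 2.05 CPM, Lama5 at 149 CPM, Lamb2 at 99.3 CPM and Lamb3 at 21 CPM, and had the raised stroma and Krt19 levels given above, whose part was not tested. XX Enh13-3bp-del-hom replicate 4, with the mesonephros markers, was lowest for Itgb5 at 192 CPM and Lama4 at 67.9 CPM and highest for Itgb6 at 3.12 CPM. The others were Nid2 at 251 CPM in XX Enh13-3bp-del-hom replicate 2, Itgb6 at 0.641 CPM in XX Enh13-3bp-12bp-del-hom replicate 3 and at 0.686 CPM in XY Enh13-1bp-ins-hom replicate 4, and Lama1 at 95.4 CPM in XY Enh13-1bp-ins-hom replicate 3.

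In the test of the difference itself, the change with the 3bp-del-hom genotype was lower in XX than in XY (edgeR, XX change minus XY change, log2) for Hspg2 (-1.01), Itga2 (-1.16), Itga7 (-2.37), Itgb3 (-1.02), Lamb2 (-0.87), Lamb3 (-4.37) and Lamc1 (-0.66). Without XY Enh13-3bp-del-hom replicate 1, Lamb3 was at -0.28 and 2 of the 7, Itga2 and Itgb3, were still called. The length trend was not removed in this test, and the direction over all genes was not counted.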

How the results depend on the processing

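Counts of called genes moved with the setting, as did the share of all genes called, given here in brackets. XY WT against XX WT had 5 called genes (11%), and 11 with DESeq2 (18%), 12 with all 12 groups in 1 fit (29.6%), and 10 with the length trend removed by either length (13.9% and 13.8%). XX Enh13-3bp-del-het had 4 (10.9%), and 8 with DESeq2 (19.8%), 0 with all groups in 1 fit (4.24%), 1 with the length trend removed (2.83%) and 0 with annotated lengths (3.4%). XX Enh13-1bp-ins-hom against XX WT had 14 (32.3%), and 9 with annotated lengths (22.7%). Against XX Enh13-1bp-ins-het it had 5 (17.3%), and 10 with DESeq2 (23.7%), 8 with all groups (23.2%) and 3 with annotated lengths (14.3%). XX Enh13-3bp-del-hom against XX Enh13-3bp-del-het had 16 (27.1%), and 10 with all groups (21.9%). XY Enh13-1bp-ins-hom had 3 with all groups (4.71%), and XY Enh13-3bp-12bp-del-hom and XY Enh13-1bp-ins-het had 1 each with DESeq2 (1% and 0.261%). Leaving out 1 library gave 2 to 25 for XY WT against XX WT, 7 to 17, 18 to 23 and 8 to 16 for XX Enh13-1bp-ins-hom, XX Enh13-3bp-del-hom and XX Enh13-3bp-12bp-del-hom against XX WT, 0 and 1 to 7 for XX Enh13-1bp-ins-het and XX Enh13-3bp-del-het, 0 to 10 and 11 to 18 for the homozygotes against heterozygotes, and 0 for each XY mutant group. The share of all genes called moved too, in XY WT against XX WT from 11% to 43.3% without XY WT replicate 3. It is not given for every such fit, so these ranges are not a result about the 35 alone. Changes reversed sign with the length trend removed for Itga1 in XX Enh13-1bp-ins-hom (0.07) and, in XX Enh13-3bp-del-hom, for Itga9 (0.13, and 0.03 with annotated lengths) and Tln2 (0.16 and 0.25). The cause of these moves was not tested.

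Of 124 called values of the 35 genes, related genes and Sox9, the direction and call held in 123 with RLE scaling, 124 with DESeq2, 112 with no filter, 94 with all groups in 1 fit, 92 with the length trend removed and 93 with annotated lengths. In 92 fits that left out 1 library the call held in 784 and was lost in 170 of the values, and 0 reversed. Genes under about 1 CPM, such as Itga7, Itga10, Itgb6 and Lamb3, had few counts, which limits what could be called for them.

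Replicate numbers are shared between groups in the labels, but same-numbered libraries did not deviate together: r ran from -0.31 to 0.32, in 0 of 13 comparisons was every pair above 0.1, and in XY Enh13-1bp-ins-het against XY WT alone did all 3 correlate best with their own number. With the replicate block 5 genes were called in XY WT against XX WT (6.92% of all genes), 18, 24 and 6 in the 3 XX homozygous groups in the order above (30.3%, 51.6% and 7.63%), 1 in XX Enh13-3bp-del-het (3.22%), 0 in XX Enh13-1bp-ins-het and in the XY mutants, and 5 and 17 in homozygotes against heterozygotes (13.4% and 24.8%), and the call held in 105 of the 124 values.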

Other observations

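Lamc3 was higher in every XY library than in all XX libraries but 1, whatever the Enh13 genotype. It had 19.3 to 36.9 CPM over all XY libraries and 5.46 to 15.7 CPM over all XX libraries but XX Enh13-1bp-ins-hom replicate 5, which had 28.4 CPM. Nid1 and Itga9 also ran higher in XY, but their ranges overlapped beyond that library. Nid1 had 308 to 501 CPM over all XY libraries and 183 to 335 CPM over all XX libraries but the same replicate 5, which had 397 CPM. Itga9 had 200 to 374 CPM over all XY libraries and 76.1 to 203 CPM over all XX libraries but that replicate, which had 331 CPM. That library had the highest Sertoli marker sum among the XX libraries, 1420 CPM, and its part in these levels was not tested. These ranges were chosen after the values were seen and are given with no test.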
